A study of Bos taurus with 8 samples.

Results

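Ephrins are ligands that stay attached to the cell that makes them and bind EPH receptors, a family of receptor tyrosine kinases, on a neighbouring cell. The gene family holds 5 A-class members (EFNA1 to EFNA5), whose proteins are tethered to the outer membrane by a glycosylphosphatidylinositol (GPI) anchor, and 3 B-class members (EFNB1 to EFNB3), whose proteins cross the membrane and carry a cytoplasmic tail. A-class ligands mostly bind EPHA receptors and B-class ligands mostly bind EPHB receptors. Signals run both into the receptor cell and back into the ligand cell, and the family is best known for guiding axons, forming vessels and keeping cell populations apart. In the mouse ovary, ephrin-A5 acts in granulosa cells, and females that lack it have reduced fertility.

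Members were taken by gene symbol from a table of 26804 genes, and all 8 ephrin ligand genes were found, each with 1 entry. The family was selected on the measured summer and winter TPM of EFNA3, which was higher in summer, so the season contrast of the ligands is given as a description, with no test. Oocytes at the germinal vesicle stage came from non-lactating, multiparous Bos taurus beef cows that were kept together. The cows were given an intravaginal progesterone device, an analog of gonadotropin-releasing hormone and follicle-stimulating hormone. They were aspirated under ultrasound in winter and again in summer. Both seasons had the same hormone treatment and the same removal of cumulus cells, and each library pooled the RNA of 2 cows. The 4 summer libraries (A, B, C and E) and 4 winter libraries (A, B, D and E) were used. Season cannot be told apart from collection session, because each season was a single session. The paper grades oocytes partly by their layers of cumulus cells, and it kept only the better grades. It reports a lower proportion of the best grade in summer. The mix of grades in each library is not given, so season also cannot be told apart from oocyte grade. Pools and not cows are the replicates, so every SD below is the spread between pools. Each SE comes from the limma fit, which moderates a gene's spread between pools by that of genes of like level.

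Levels are in TPM, which gives each gene's part of the transcripts in a library after division by transcript length. The paper gives an average read depth over the oocyte libraries, and the depth of each library is unknown. Each difference subtracts the winter mean from the summer mean of log2(TPM + 1), a scale that makes changes of low genes look smaller than they are. Means are given with SD and n = 4 per season. The filter for expression was a zFPKM (a score of the distance from the main peak of expressed genes in a library) above -3 in every library of a season, and genes that met it in at least 1 season were tested. All 15 oocyte markers were found, but the summed level of these markers differed between the seasons. It lay between 15335 and 17839 TPM in summer and between 4634 (winter E) and 11257 TPM in winter. Of the 15 markers, 14 were called higher in summer, beside 4.40% of all tested genes. Granulosa, stroma and epithelial transcripts were also present. The summed level of 14 cumulus and granulosa markers ranged from 8065 to 11626 TPM in summer and from 9407 to 37484 TPM in winter, where winter E was highest. The summed level of 12 theca and stroma markers ranged from 493 to 616 TPM in summer and from 724 (winter A) to 2699 TPM (winter B) in winter. Winter A stood apart by its epithelial markers, 3586 TPM against 197 to 1086 TPM in the other 7 libraries. In bulk libraries fewer cells of a type and less RNA per cell cannot be told apart.

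EFNA3 was the only ligand with all summer libraries above all winter libraries. Its TPM was 4.78, 5.98, 6.64 and 7.26 in summer A, B, C and E, and 0.759, 1.38, 0.706 and 1.84 in winter A, B, D and E. The lowest summer library therefore lay well above the highest winter library, and neither season held a library far from the rest. The summer mean was 6.17 ± 1.06 TPM and the winter mean 1.17 ± 0.540 TPM, a ratio of 5.27. The difference was 1.74 (SE 0.28), the 14th most positive of 13379 tested genes, and this is the value for which the family was picked. EFNA3 encodes ephrin-A3, a ligand known elsewhere as a hypoxia-responsive target of miR-210. Even in summer it was a transcript of low level, ranked between 10153rd and 10599th in a library, and in winter it ranked between 12564th and 14666th. It was expressed in both seasons by the zFPKM limit, although winter A, at -2.91, was close to that limit. Leaving out any 1 library gave a difference between 1.64 and 1.88.

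**Figure D1:**
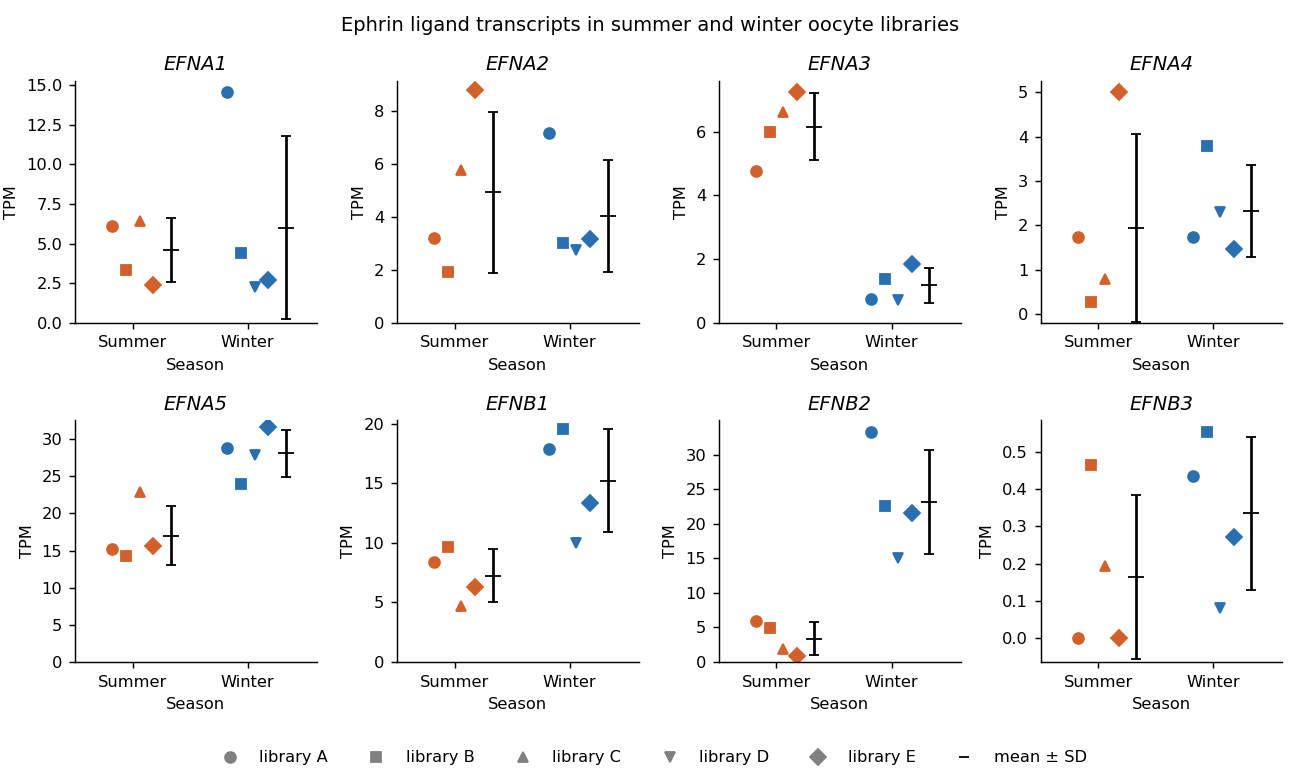
TPM (vertical axes) of each ephrin ligand in the 4 summer (orange) and 4 winter (blue) libraries (horizontal axes), with a symbol for each library letter and black bars for the mean ± SD. EFNA3 has all summer values above all winter values, EFNA5, EFNB1 and EFNB2 have all summer values below all winter values, and the other 4 ligands overlap between the seasons.

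EFNA5 was the most abundant ligand in both seasons and was lower in summer. Ephrin-A5 is the A-class ligand studied in granulosa cells, and it can also bind the B-class receptor EPHB2. Its TPM was 15.2, 14.3, 22.9 and 15.6 in summer A, B, C and E, and 28.8, 24.0, 27.9 and 31.6 in winter A, B, D and E. The seasons did not overlap, but summer C came within little more than 1 TPM of winter B. The means were 17.0 ± 3.94 and 28.1 ± 3.15 TPM, a difference of -0.71 (SE 0.19).

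The other A-class ligands overlapped between the seasons. EFNA1, first known as a cytokine-induced gene of endothelial cells and a ligand of EPHA2, stood at 6.13, 3.34, 6.45 and 2.37 TPM in summer A, B, C and E, and at 14.5, 4.43, 2.27 and 2.70 TPM in winter A, B, D and E. Its winter mean of 5.99 ± 5.78 TPM rested on winter A. The difference was -0.10 (SE 0.49) over all libraries and 0.39 without winter A. Winter A was also the library with 330 TPM of OVGP1, the oviduct glycoprotein gene, which did not exceed 0.669 TPM in any other library, and the part of epithelial RNA in the level of EFNA1 was not tested. EFNA2, a ligand known from the mapping of retinal axons, stood at 3.21, 1.91, 5.75 and 8.78 TPM in summer and at 7.17, 2.99, 2.74 and 3.15 TPM in winter, in the same order of libraries. Winter A was again above the other winter libraries, and summer E was the highest of all. The difference was 0.17 (SE 0.41), and without summer E it was -0.12. EFNA4 was low, with 1.73, 0.278, 0.804 and 5.00 TPM in summer and 1.74, 3.79, 2.31 and 1.47 TPM in winter. The summer values of EFNA4 spread over a wider range than the winter values and enclosed them (difference -0.38, SE 0.46). EFNA4 was expressed in winter but not in summer by the zFPKM limit, so it was tested through the winter libraries alone.

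Both B-class ligands with measurable transcripts were lower in summer. Ephrin-B2, the product of EFNB2, marks arterial endothelium and is the preferred ligand of EPHB4. EFNB2 stood at 5.89, 4.89, 1.92 and 0.879 TPM in summer A, B, C and E, and at 33.3, 22.6, 15.0 and 21.5 TPM in winter A, B, D and E. Every summer library lay far below the lowest winter library, and the summer libraries differed from each other more, in proportion, than the winter libraries did. The winter mean was 23.1 ± 7.58 TPM and the summer mean 3.40 ± 2.38 TPM, a ratio of 6.81. The difference was -2.59 (SE 0.42), the 101st most negative of the tested genes. Like EFNA4, EFNB2 was counted as expressed in winter but not in summer, because of summer E, so it entered the tested genes through the winter libraries alone. EFNB1, whose loss in humans disturbs the skull sutures, stood at 8.35, 9.65, 4.70 and 6.31 TPM in summer and at 17.9, 19.5, 10.02 and 13.4 TPM in winter. The seasons did not overlap, but the highest summer library (B) and the lowest winter library (D) lay close together. The means were 7.25 ± 2.19 and 15.2 ± 4.33 TPM (difference -0.97, SE 0.28). EFNB3, a midline barrier of the spinal cord, was near 0 throughout. It was listed at 0 in summer A and summer E, did not exceed 0.553 TPM in any library, was expressed in neither season and was not tested.

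Of the 8 ligands, 4 did not overlap between the seasons, 1 above and 3 below. Over all tested genes 15.4% lay wholly above and 14.1% wholly below in summer, 29.5% in either way. Leaving out a library only narrows a range, so the count could not fall, and it stayed at 4 when any 1 library was left out. Other genes were called by limma at a 2-fold or larger difference with an adjusted p under 0.05, a rule not applied to the ligands. As the season contrast chose the family, nothing is read from the counts of ligands that did not overlap. The median difference of the 7 tested ligands was -0.38, and that of all tested genes was -0.03.

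The seasons differed in the B-class sum of the ligand transcripts and overlapped in the A-class sum. Summed over the 8 ligands, the level was 45.4 ± 3.50 TPM in summer (from 40.8 to 49.3) and 80.3 ± 18.1 TPM in winter (from 61.1 to 104.7). The A-class sum was 34.6 ± 7.55 TPM in summer and 41.6 ± 7.95 TPM in winter, and its ranges overlapped. The B-class sum was 10.8 ± 4.42 TPM in summer and 38.7 ± 11.3 TPM in winter, with no overlap. B-class ligands made up 31.4, 36.7, 13.8 and 15.5% of ligand TPM in summer A, B, C and E, and 49.3, 53.9, 41.2 and 46.3% in winter A, B, D and E. EFNA3 made up between 10.5 and 15.7% in summer and between 0.725 and 2.42% in winter, whereas the share of EFNA5 was much the same (37.2 ± 6.13% and 36.3 ± 8.75%). These shares are ratios within a library, so they do not depend on how libraries were scaled to each other. The ratio of EFNA3 to EFNB2 was 0.812, 1.22, 3.45 and 8.26 in summer A, B, C and E. It did not exceed 0.0854 in winter.

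**Figure D2:**
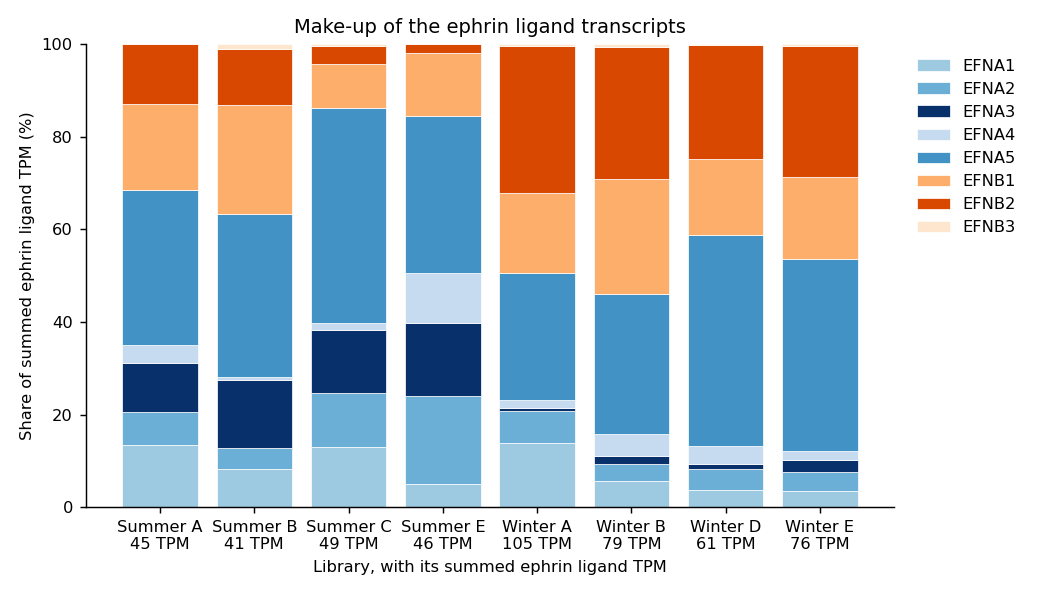
Share of the summed ephrin ligand TPM (vertical axis, percent) held by each ligand in each library (horizontal axis, with the summed TPM under its name), with A-class ligands in blue and B-class ligands in orange. EFNA3 (darkest blue) is a visible band of 10.5 to 15.7% in summer, and EFNB2 (darkest orange) is the wider band in winter, where B-class ligands hold 41.2 to 53.9%.

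The order of levels changed with the season for EFNA3 and EFNB2. In winter the order by mean was EFNA5, EFNB2, EFNB1, EFNA1, EFNA2, EFNA4, EFNA3 and EFNB3. All neighbours in this order overlapped in their ranges except EFNA3 and EFNB3 at the low end. In summer the order was EFNA5, EFNB1, EFNA3, EFNA2, EFNA1, EFNB2, EFNA4 and EFNB3. There EFNA5 stood clear of EFNB1, and all other neighbours overlapped. EFNA3 was thus in the third place in summer and the seventh in winter, and EFNB2 in the sixth and the second. EFNB2 exceeded EFNB1 in all 4 winter libraries and in none of the summer libraries.

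Set against the oocyte markers, EFNA3 no longer separated the seasons fully. Per 1000 TPM of the oocyte marker list, EFNA3 stood at 0.296, 0.335, 0.433 and 0.447 TPM in summer A, B, C and E, and at 0.0902, 0.123, 0.0976 and 0.397 TPM in winter A, B, D and E. Winter E, which had the lowest oocyte marker total, lay among the summer libraries, and the other 3 winter libraries lay below all of them. With every library scaled to an equal oocyte marker total, the median of all tested genes shifted to -1.06. EFNA3 differed by 0.96 on that scale. All genes of a library are scaled by the same factor, so its place above the median gene was all but fixed by the unscaled values. That scaling turned the counts over all genes from 589 higher and 692 lower into 7 higher and 7008 lower. Per 1000 TPM of the cumulus and granulosa list, EFNA3 was again higher in all summer libraries, from 0.523 to 0.763 TPM against 0.0491 to 0.147 TPM in winter. The same held against the stroma, endothelial and epithelial lists. Against the leukocyte list the seasons overlapped, with winter E (45.1) above summer A (24.0).

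EFNB2 separated the seasons fully against the oocyte, endothelial and leukocyte markers, and not against the granulosa, stroma and epithelial markers. EFNA5 and EFNB1 separated the seasons fully against the oocyte and endothelial markers only, and overlapped against the other lists. Per 1000 TPM of oocyte markers EFNB2 stood between 0.0541 and 0.365 TPM in summer and between 2.01 and 4.65 TPM in winter. Per 1000 TPM of the theca and stroma list, a ratio that like those to the lists other than oocyte was chosen after its values were seen, it stood at 9.57, 9.93, 3.32 and 1.61 TPM in summer A, B, C and E and at 46.1, 8.38, 13.2 and 14.5 TPM in winter A, B, D and E. Winter B lay below summer A and summer B, so the seasons overlapped. The means were 6.11 ± 4.26 in summer and 20.5 ± 17.2 in winter, where winter A stood far above the others. Per 1000 TPM of cumulus and granulosa markers, winter E (0.575) lay below summer A (0.644) and summer B (0.606). Of the 12 theca and stroma markers, 11 were tested and none was at 0 in all libraries. Limma called 9 of them lower in summer, beside 5.17% of all tested genes. Of these, COL3A1, DCN, PDGFRB and TAGLN were tested through the winter libraries alone. The other tested members, STAR (between 117 and 346 TPM) and INSL3 (between 68.2 and 168 TPM), were called in neither direction. CYP17A1 did not exceed 0.852 TPM and was not tested. STAR held 331 of the 616 TPM of the list in summer A and 264 of the 2699 TPM in winter B. The ratio to this list is therefore not a ratio to stroma alone. Winter A, the winter library with the least of this list, had the most EFNB2. The part of stroma RNA in the level of EFNB2 was not tested. The summed level of the 10 endothelial markers was 33.7 to 53.7 TPM in summer and 23.5 to 48.4 TPM in winter, of which TEK held 4.87 to 22.3 TPM and VWF 4.79 to 12.2 TPM over all libraries. PECAM1, CDH5 and ESAM did not exceed 0.457 TPM in any library. Claudin 5 (CLDN5) was the 1 endothelial marker called lower in summer, and it too was tested through the winter libraries alone. The other tested endothelial markers, VWF, KDR, TEK, TIE1 and ERG, had higher means in summer and were not called.

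**Figure D3:**
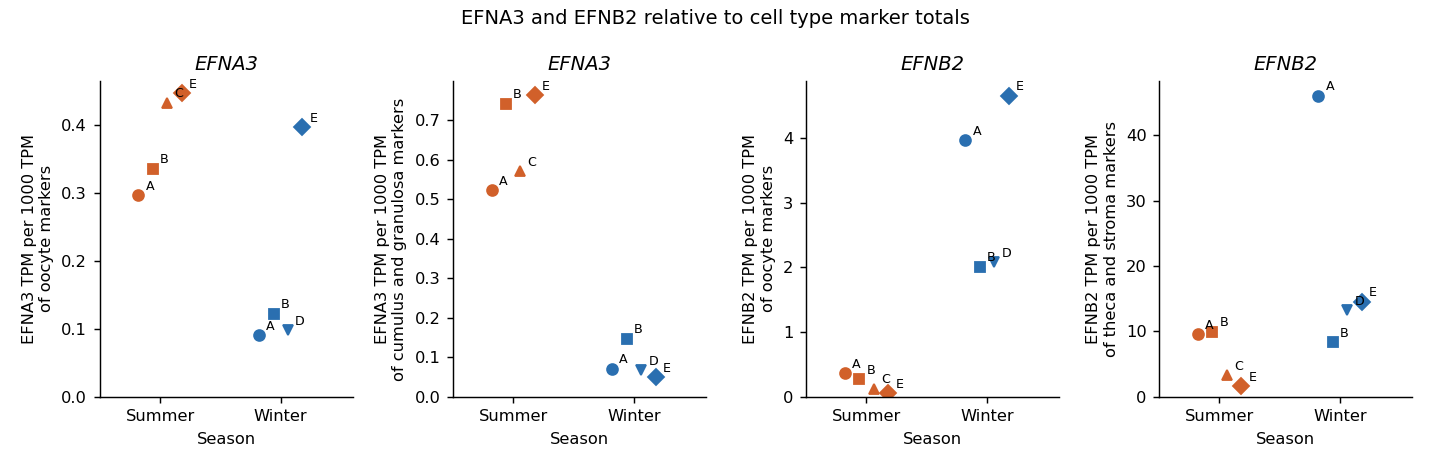
TPM of EFNA3 and EFNB2 per 1000 TPM of a summed marker list (vertical axes) in summer (orange) and winter (blue) libraries (horizontal axes), with the library letter beside each point. Winter E reaches 0.397 for EFNA3 over the oocyte markers and lies among the summer libraries, and winter B reaches 8.38 for EFNB2 over the theca and stroma markers, below summer A and B.

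None of the tested EPH receptors was called, though EPHB4 came close. All 14 EPH receptor genes were in the table, 10 were tested, and 0 were called by limma (2 had an unadjusted p under 0.05), beside 9.57% of all tested genes called in either direction. The median difference of the tested receptors was -0.22. EPHB4, the receptor for ephrin-B2, stood at 6.94, 9.01, 8.36 and 7.76 TPM in summer A, B, C and E and 13.7, 19.9, 9.89 and 18.6 TPM in winter A, B, D and E. Its seasons did not overlap, as was the case for 29.5% of all tested genes. The difference was -0.83 (SE 0.25, adjusted p = 0.0317, limma), short of the 2-fold limit, and it passed the limit without winter D (-1.02, adjusted p = 0.0271, limma). With each library left out in turn its adjusted p lay between 0.0271 and 0.0876. The ratio of EFNB2 to EPHB4 was 0.849, 0.543, 0.230 and 0.113 in summer and between 1.14 and 2.44 in winter.

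EPHA2, a receptor of epithelial cells that binds A-class ligands, was the most abundant receptor in these libraries. It stood at 86.6, 68.5, 38.4 and 45.0 TPM in summer and at 235, 65.0, 62.6 and 67.6 TPM in winter, so that winter A alone set the winter mean (difference -0.66, SE 0.41, adjusted p = 0.252, limma). Without winter A the difference was -0.20 (adjusted p = 0.590, limma). EPHB6, a receptor with no kinase activity, was second, with 51.8 TPM in summer C against 6.89 to 8.65 TPM in the other summer libraries, and between 2.99 and 39.5 TPM in winter. Its difference of -0.13 (SE 0.74, adjusted p = 0.910, limma) turned positive without summer A, summer B, summer E or winter A. EPHA3, EPHA8, EPHB1 and EPHB3 were not expressed in either season.

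**Figure D4:**
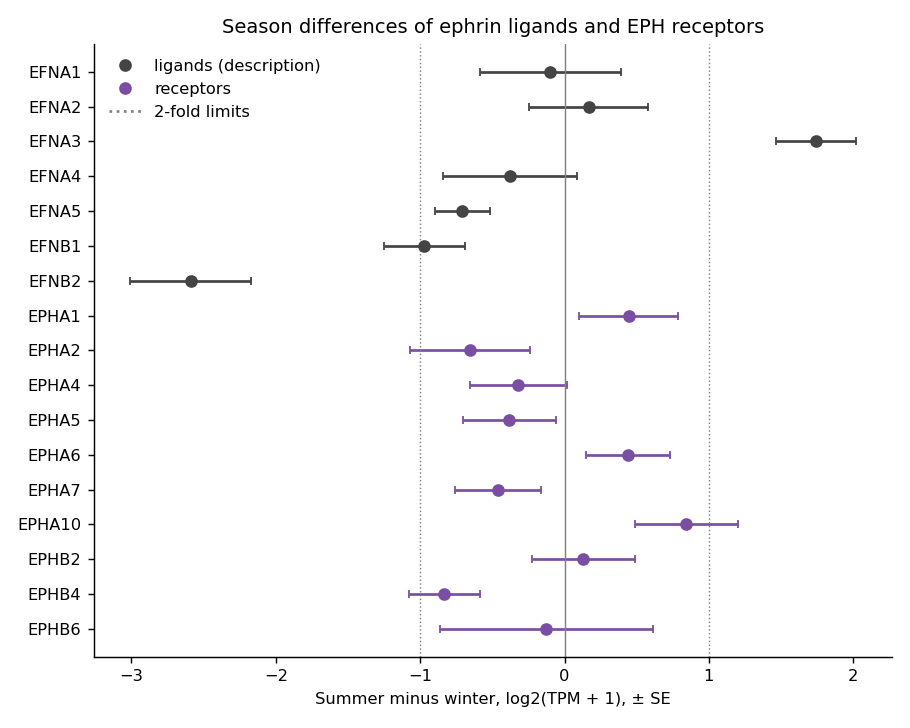
Summer minus winter difference on the log2(TPM + 1) scale (horizontal axis) with its SE for the 7 tested ligands (grey) and the 10 tested EPH receptors (purple), with dotted lines at the 2-fold limits. EFNA3 at 1.74 and EFNB2 at -2.59 lie beyond the limits, and every receptor lies within them.

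Genes that carry the signal inside cells were mostly called in neither direction. Of 35 partners of ephrin and EPH signaling, 34 were tested, 1 rose and 1 fell, beside 4.40% and 5.17% of all tested genes. The median difference was 0.13. VAV2, a guanine nucleotide exchange factor that acts downstream of EPH receptors, fell from 9.89 ± 3.23 TPM in winter to 2.34 ± 0.505 TPM in summer (difference -1.66, SE 0.29, adjusted p = 0.00590, limma). No summer library of VAV2 exceeded 3.07 TPM, and no winter library was under 5.24 TPM. NGEF, which encodes ephexin, the exchange factor bound by EPHA4, rose from 1.68 ± 1.22 to 5.39 ± 2.496 TPM (difference 1.26, SE 0.39, adjusted p = 0.0354, limma). Its seasons overlapped, and it no longer passed when any 1 of summer B, C and E and winter A, D and E was left out (limma, the highest adjusted p was 0.0918). Below the 2-fold limit, 11 partners had an adjusted p under 0.05 when these 2 are included, 6 higher and 5 lower, against 26.8% of all tested genes. Among them were INPPL1, the lipid phosphatase SHIP2 that docks on EPHA2 (56.8 ± 9.24 against 104.3 ± 9.01 TPM), and the adaptor gene NCK1 (232 ± 15.5 against 128 ± 39.1 TPM). INPPL1 and NCK1 were named after their values were seen.

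No gene of the GPI anchor pathway, on which A-class ephrins depend, reached the limit. Of 23 tested genes, 0 were called by limma, although 8 had an unadjusted p under 0.05 and 6 an adjusted p under 0.05, 5 of them lower and 1 higher. Over all tested genes 9.57% were called and 26.8% had an adjusted p under 0.05. One gene was called without summer B, without summer E or without winter B. PIGT and PIGK, subunits of the transamidase that attaches the anchor and both named after their values were seen, stood at 53.4 ± 3.05 against 96.8 ± 13.2 TPM and at 14.7 ± 1.79 against 29.0 ± 5.81 TPM, with no overlap for either, as for 29.5% of all tested genes.

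EFNA1, EFNA3 and EFNA4 lie side by side in the bovine gene order (RefSeq gene table of ARS-UCD2.0), with no other RefSeq gene between them, and they did not move alike. EFNA3 differed by 1.74, while EFNA1 on its one side differed by -0.10 and EFNA4 on its other side by -0.38. The ratio of EFNA3 to EFNA4 was 2.77, 21.6, 8.25 and 1.45 in summer A, B, C and E, and 0.436, 0.364, 0.306 and 1.25 in winter A, B, D and E, so the seasons did not overlap but summer E and winter E came close. Neighbouring genes were read in 20 positions around the trio, of which 16 were tested and 4 were called (25.0% against 9.57% of all tested genes), 2 in each direction. ADAM15, a membrane metalloprotease gene directly beside EFNA4, fell from 24.8 ± 5.56 to 11.1 ± 2.24 TPM (difference -1.08, SE 0.23, adjusted p = 0.00954, limma). It was short of the 2-fold limit without summer E (-0.98) or winter D (-0.99). ZBTB7B, a transcription factor gene, fell from 22.2 ± 1.64 to 8.004 ± 1.16 TPM (difference -1.37, SE 0.19, adjusted p = 0.00354, limma). CKS1B, a cyclin-dependent kinase subunit gene, rose from 480 ± 112 to 1015 ± 106 TPM (difference 1.10, SE 0.17, adjusted p = 0.00470, limma), and with libraries scaled to equal oocyte markers the difference was -0.02. KCNN3, a potassium channel gene, rose from 126 ± 35.1 to 264 ± 33.7 TPM (difference 1.08, SE 0.19, adjusted p = 0.00578, limma), was short of the limit without winter E (0.96), and differed by -0.03 on the oocyte marker scale. SLC50A1, a sugar transporter gene directly beside EFNA1, was not tested. It stood at 2.28, 0, 1.68 and 2.53 TPM in summer A, B, C and E and at 0, 0.286, 0 and 0.391 TPM in winter A, B, D and E, so its seasons overlapped. Overlapping reads of neighbouring genes cannot be told apart here, because whether the counting used strand is not given in the sources used here.

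**Figure D5:**
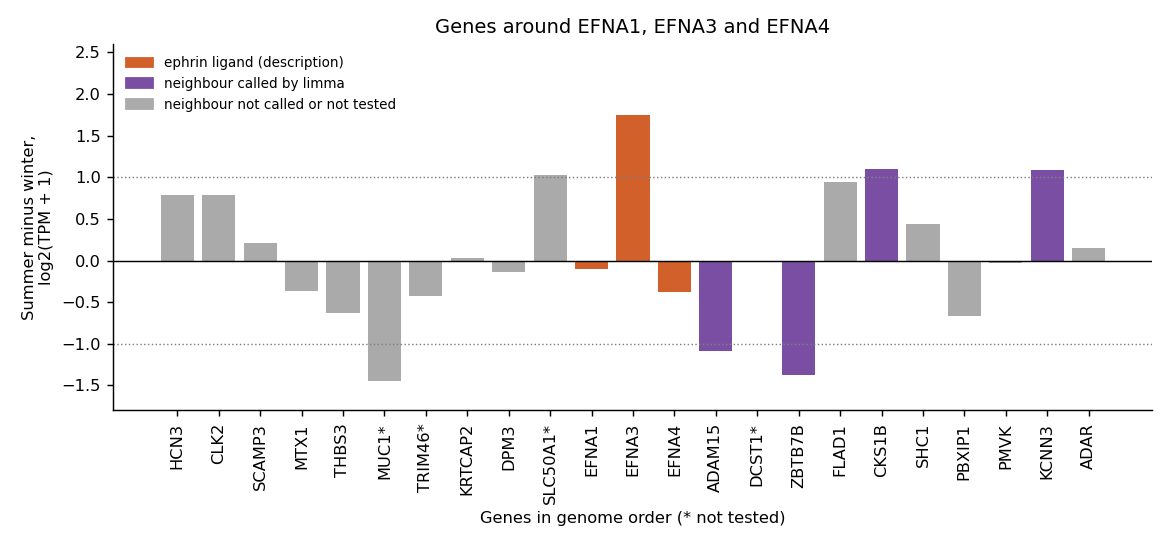
Summer minus winter difference on the log2(TPM + 1) scale (vertical axis) for EFNA1, EFNA3 and EFNA4 (orange) and the genes on either side, in genome order (horizontal axis), with neighbours called by limma in purple, other neighbours in grey (an asterisk marks those not tested) and dotted lines at the 2-fold limits. EFNA3 stands at 1.74 between EFNA1 at -0.10 and EFNA4 at -0.38.

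The genes whose profile across the 8 libraries was most like that of EFNA3 all had a higher mean level than EFNA3. Likeness was the root mean square distance between log2(TPM + 1) values, each gene centred on its own mean, over 12607 tested genes with a symbol. CIDEA, a lipid droplet protein gene, was nearest (distance 0.25), at 17.0, 17.6, 29.8 and 25.6 TPM in summer A, B, C and E and 6.59, 8.07, 6.33 and 7.19 TPM in winter A, B, D and E. SPDYC, of the Speedy family of cell cycle kinase activators, followed (0.26), with 210 to 240 TPM in summer and 60.3 to 121 TPM in winter. DUSP13, a dual specificity phosphatase gene (0.29), REPS2, a gene of endocytosis (0.29), and BCL2L14, of the BCL2 family (0.32), completed the nearest 5. All 5 lay higher in every summer library than in any winter library, a pattern that their likeness to EFNA3 fixes.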

How the data were processed

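The values deposited by the authors are TPM per gene. The paper's methods describe trimming, mapping to the bovine genome and trimmed-mean normalization in CLC Genomics Workbench. The submitters' notes instead list Bowtie2 2.2.2 and DESeq2 with bcl2fastq and the assembly ARS-UCD1.2, and the sources used here do not tell which route gave the table. Totals are equal in all libraries, so the depth of each library is unknown. A zFPKM was computed within each library, and 13379 genes above -3 throughout a season entered limma 3.58.1 (R 4.3.3) on log2(TPM + 1), with a term for season and adjustment after Benjamini and Hochberg. The study fitted counts, which TPM does not allow. The test was checked on simulated data, with differences planted only in genes of higher level. That check does not cover differences in genes as low as NGEF or VAV2. Alternatives were other pseudocounts, filters, scalings and moderation, a block for the library letter, and omission of single libraries.

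Members and lists were chosen with earlier results of these data known. Named were all ligands, called receptors and the 3 most abundant, called genes among partners, anchor genes and neighbours, genes directly beside a ligand, the 5 genes most like EFNA3, and the most abundant gene of each cell type list (oocyte ZP3, granulosa INHA, stroma STAR, endothelium TEK, leukocytes CD74, epithelium KRT8). Other genes were named after their values were seen. Of 14 granulosa markers, 1 was called lower in summer. Leukocyte markers summed to 97.4 to 199.6 TPM in summer and 40.8 to 709 TPM in winter (highest in winter A), with 1 of 5 tested called higher and 1 lower. The lower one, CD68, was tested through the winter libraries alone. Of 5 tested epithelial markers 0 were called by limma, with an unadjusted p under 0.05 for KRT8 and KRT18. Neighbours were the 10 genes of the table on each side of EFNA1, EFNA3 and EFNA4 in RefSeq order, matched by symbol, as were all 8 ligands. One gene of the GPI anchor list was not analysed here, and sequences were not used here.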

Additional observations from a re-analysis of the deposited data

Results flagged for a closer look

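The TPM of 22 genes was checked in each season, namely the 8 ligands, EPHA2, EPHB4, EPHB6, VAV2, NGEF, the 4 called neighbours and the 5 genes most like EFNA3. In 4 of these 44 sets of 4 libraries, 1 library lay far from the other 3 by Dixon's criterion, which chance meets in about 1 of 20 sets. EFNA2 stood at 7.17 TPM in winter A, against 2.74 to 3.15 TPM in the other winter libraries. EPHA2 stood at 235 TPM in winter A, against 62.6 to 67.6 TPM in the others. EFNA5 stood at 22.9 TPM in summer C, against 14.3 to 15.6 TPM in the other summer libraries. EPHB6 stood at 51.8 TPM in summer C, against 6.89 to 8.65 TPM in the others.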

How the results depend on the processing

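The difference of EFNA3 was positive under all 16 alternatives, at 2.38 with a pseudocount of 0.1, 0.85 with a pseudocount of 5 and 0.96 with libraries scaled to equal oocyte markers. EFNA5, EFNB1 and EFNB2 were negative under the same 16. So were EFNA4 (-1.08 to -0.058), which overlapped between the seasons, and EFNB3 (-0.96 to -0.047), which was near 0 TPM. EFNB2 ranged from -3.56 to -1.75, EFNA1 from -0.997 to 0.388 and EFNA2 from -0.73 to 0.54. Between 3 and 4 ligands did not overlap between the seasons. Over all genes, 270 to 983 were called higher with 1 library left out (fewest without winter E, most without winter B), and 888 after removal of summer A and winter A together, a setting chosen after seeing the data. With a pseudocount of 5, 295 were higher, 361 lower and 0 signaling partners called, and without a filter 1 partner was. Receptors called numbered 0 to 1 with 1 library left out (1 without winter D), 1 after quantile normalization and 5 on the oocyte marker scale, where 7 genes were higher, 7008 lower, 16 partners, 15 anchor genes and 7 neighbours called. Quantile normalization left 2 neighbours called. Partners called numbered 1 to 3 with 1 library left out (most without winter B) and 5 without summer A and winter A, and anchor genes 0 to 1 and 1. Reversed differences were those of CKS1B (-0.0204) and KCNN3 (-0.0343) on the oocyte marker scale and of EPHB6 (-0.78 to 0.35 with 1 library left out, 0.62 without summer A and winter A). The cause of these changes was not tested.

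The cows were sampled in both seasons, but the sources used here do not say whether a letter marks the same cows in both. The paper states that a failed summer replicate was left out together with its winter counterpart, whereas letter C is present only in summer and D only in winter. As the pairing is not given, the main fit did not treat the letters as pairs. Deviations of libraries with the same letter correlated at 0.0492 (A), 0.138 (B) and 0.201 (E) across genes. Each of these libraries correlated best with the one of its own letter, a hint from the data and not the design. With the letter as a replicate block, which rests on the 3 shared letters, 179 genes were higher, 296 lower, 0 partners, 0 receptors and 2 neighbours were called, and EFNA3 differed by 1.604. The calls lost with it were those of VAV2 (adjusted p = 0.0547, limma), NGEF (0.113), ADAM15 (0.0640) and KCNN3 (0.0527). TPM keeps no read depth for a library, so the counting error of ligands near 1 TPM is not known.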
